A study of Mus musculus with 7 samples.

Results

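The genes described here make, break down or sense the cyclic nucleotides cAMP and cGMP, or make nitric oxide. They were studied in RNA from a pulldown aimed at the kisspeptin neurons of the preoptic AVPV (anteroventral periventricular nucleus). The peptide of these neurons drives the neurons controlling ovulation. The genes were chosen by symbol among protein-coding genes: the adenylyl cyclases (Adcy), soluble and receptor guanylyl cyclases (Gucy1 and Gucy2), nitric oxide synthases (Nos1 to Nos3), phosphodiesterases (Pde), subunits of protein kinase A (Prkac and Prkar), protein kinase G (Prkg) and the cAMP-activated exchange factors Epac (Rapgef3 and Rapgef4). The rule found 54 genes of 55384 listed, and 50 of them had enough counts to be tested. Adcy10, Gucy2d, Pde6a and Pde6c were too low for testing. Not every gene that the rule took encodes a cyclic nucleotide enzyme. Pde6d encodes a prenyl-binding protein, the Prkar genes encode regulatory subunits, and the Epac proteins are exchange factors. The nitric oxide synthases make nitric oxide and not a cyclic nucleotide.

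RNA bound to tagged ribosomes (RiboTag) was sequenced from female mice of the strain Kiss1Cre+/Rpl22HA+/+ on a C57BL/6 background, in which Cre from the Kiss1 locus switches on an HA-tagged ribosomal protein Rpl22. Tagged ribosomes were pulled down from AVPV micropunches, and each library held the RNA of 4 pooled brains. There were 3 libraries from females treated with estradiol (E2) and 4 from ovariectomised females without it (GDX). The labels used here give no dose, duration or age and do not state whether the E2 females had also been ovariectomised. Libraries of unpurified tissue were not analysed here, so enrichment by the pulldown was not measured.

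Adenylyl cyclases make cAMP downstream of G protein-coupled receptors, and guanylyl cyclases make cGMP, some of them on binding nitric oxide or peptide hormones. Phosphodiesterases hydrolyse either or both nucleotides, and protein kinase A, protein kinase G, Epac and cyclic nucleotide-gated channels read them out. In the preoptic area, neuronal nitric oxide synthase and cAMP signalling are known for their part in the control of gonadotropin-releasing hormone neurons.

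Library totals ran from 30929883 to 33438199 expected counts in E2 and from 29207544 to 36213127 in GDX. Kiss1 had 381, 485 and 379 CPM (counts scaled to a common library size with TMM factors) in the E2 libraries, against 52.1, 44.5, 56.0 and 114 CPM in the GDX libraries. The estrogen target Pgr, encoding the progesterone receptor, averaged 117 ± 12.9 CPM in E2 (SD, n = 3) and 28.3 ± 3.95 CPM in GDX (SD, n = 4). Both genes therefore separated the groups as labelled. Astrocyte marker RNA summed to 531 to 629 CPM in E2 and 769 to 2681 CPM in GDX, and endothelial marker RNA to 101 to 169 CPM in E2 and 177 to 446 CPM in GDX. Over 5 lists of glial, ependymal and endothelial markers, the mean log2 CPM was 4.50 to 4.99 in E2 and 5.08 to 5.75 in GDX, with no overlap. Oligodendrocyte marker RNA summed to 2371 to 2856 CPM in E2 and 2555 to 5348 CPM in GDX, and these ranges overlapped. Ependymal marker RNA also overlapped, at 31.3 to 74.3 CPM in E2 and 68.3 to 142 CPM in GDX. Microglial markers overlapped between the groups, at 62.8 to 84.9 CPM in E2 and 59.6 to 77.7 CPM in GDX, and so did the pan-neuronal markers, at 2605 to 2826 CPM in E2 and 2448 to 2843 CPM in GDX. Of 18282 genes tested, 710 had a Benjamini-Hochberg adjusted p under 0.05 in the edgeR quasi-likelihood test, which is 3.88% of them. Of these, 467 were higher in E2 (2.55%) and 243 lower (1.33%). With library sizes as the only scaling, 385 genes were higher and 352 lower. More genes were lower than higher with DESeq2, at 675 higher and 725 lower, and without the low-count filter, at 722 higher and 887 lower. Leaving out E2 replicate 1, 2 or 3 left 364, 418 and 458 genes called.

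Of the 50 tested signalling genes 5 passed the threshold, which is 10% beside 3.88% of all tested genes. Nos1 (neuronal nitric oxide synthase), Pde2a and Pde10a (phosphodiesterases that hydrolyse both cAMP and cGMP) and Prkacb (a catalytic subunit of protein kinase A) rose in E2 by 1.23 to 1.5-fold. Nos3, the endothelial nitric oxide synthase, fell to 0.440 of its GDX level. No adenylyl cyclase, guanylyl cyclase, protein kinase G or Epac gene passed the edgeR quasi-likelihood test. Adcy4 was called lower by DESeq2, by limma-voom and without the low-count filter, and Rapgef4 was called higher without that filter (adjusted p = 0.0352). All 5 called genes were among the 36 members that averaged at least 10 CPM, where 13.9% were called, beside 5.50% of the 10641 tested genes at that level. The count changed when single libraries were left out: without E2 replicate 1, 2 or 3 there were 1, 3 and 2 calls. Among all genes these fits called 364, 418 and 458, beside 710. Leaving out GDX replicate 3 gave 8 calls, and Prkacb was called in every one of these fits. The plot of the 5 genes by library shows how far the groups stood apart.

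**Figure D1:**
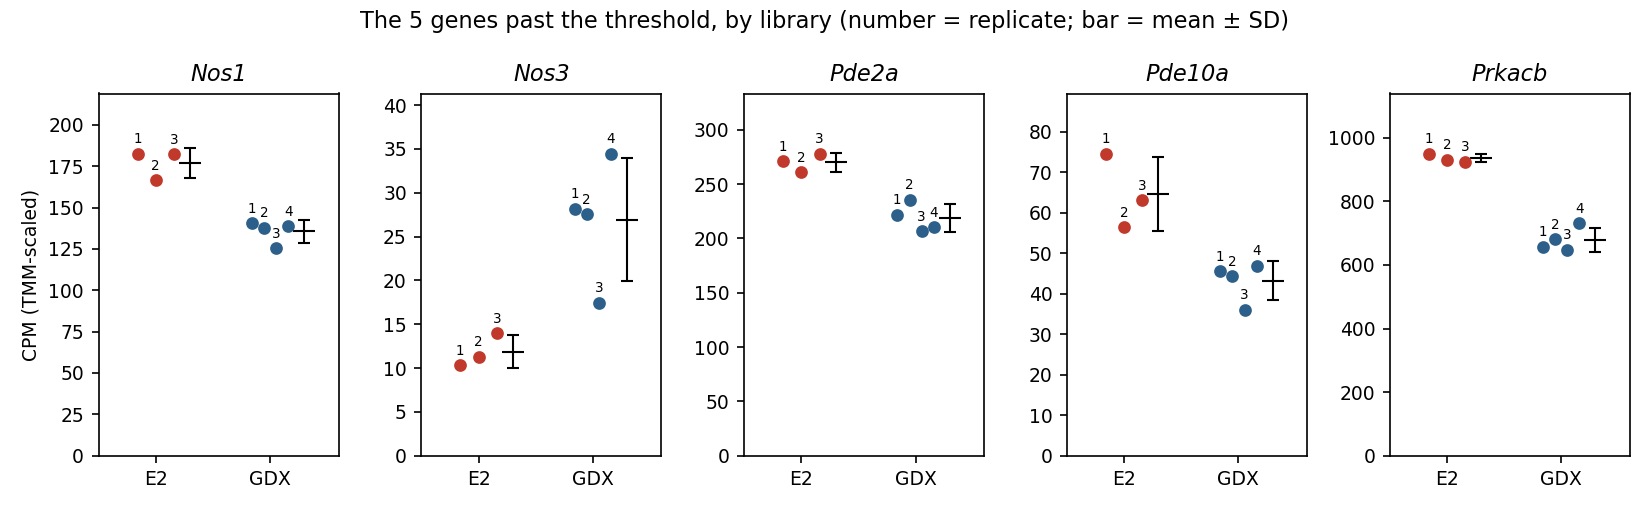
Normalised level in CPM (TMM-scaled, linear axes starting at 0) of Nos1, Nos3, Pde2a, Pde10a and Prkacb in each E2 (n = 3) and GDX (n = 4) library, with replicate numbers and the mean ± SD beside the points. The E2 libraries lie above all GDX libraries for 4 genes and below them for Nos3, where the GDX libraries spread from 17.4 to 34.4 CPM.

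Across all 50 tested genes the median log2 fold change, E2 over GDX, was -0.06, beside 0.00 over all tested genes, and it ran from -1.58 for Pde3a to 1.44 for Pde6b. Estimates were positive for 20 genes and negative for 30, beside 9279 positive and 9003 negative among all tested genes. In 12 genes the libraries of the groups did not overlap, 9 with E2 above (8.43% of all tested genes) and 3 with E2 below (8.06%). An unadjusted p under 0.05 was found for 13 genes, against a background of 16.8%, and 8 of these were not called after adjustment. Of the 14 tested genes that averaged under 10 CPM none was called with the edgeR quasi-likelihood test, 4 had an unadjusted p under 0.05, and 13 had negative estimates. The shares among all tested genes under 10 CPM were not computed, so these counts have no background at that level. DESeq2 called 3 of these low genes lower, namely Adcy4, Pde3a and Pde5a.

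**Figure D2:**
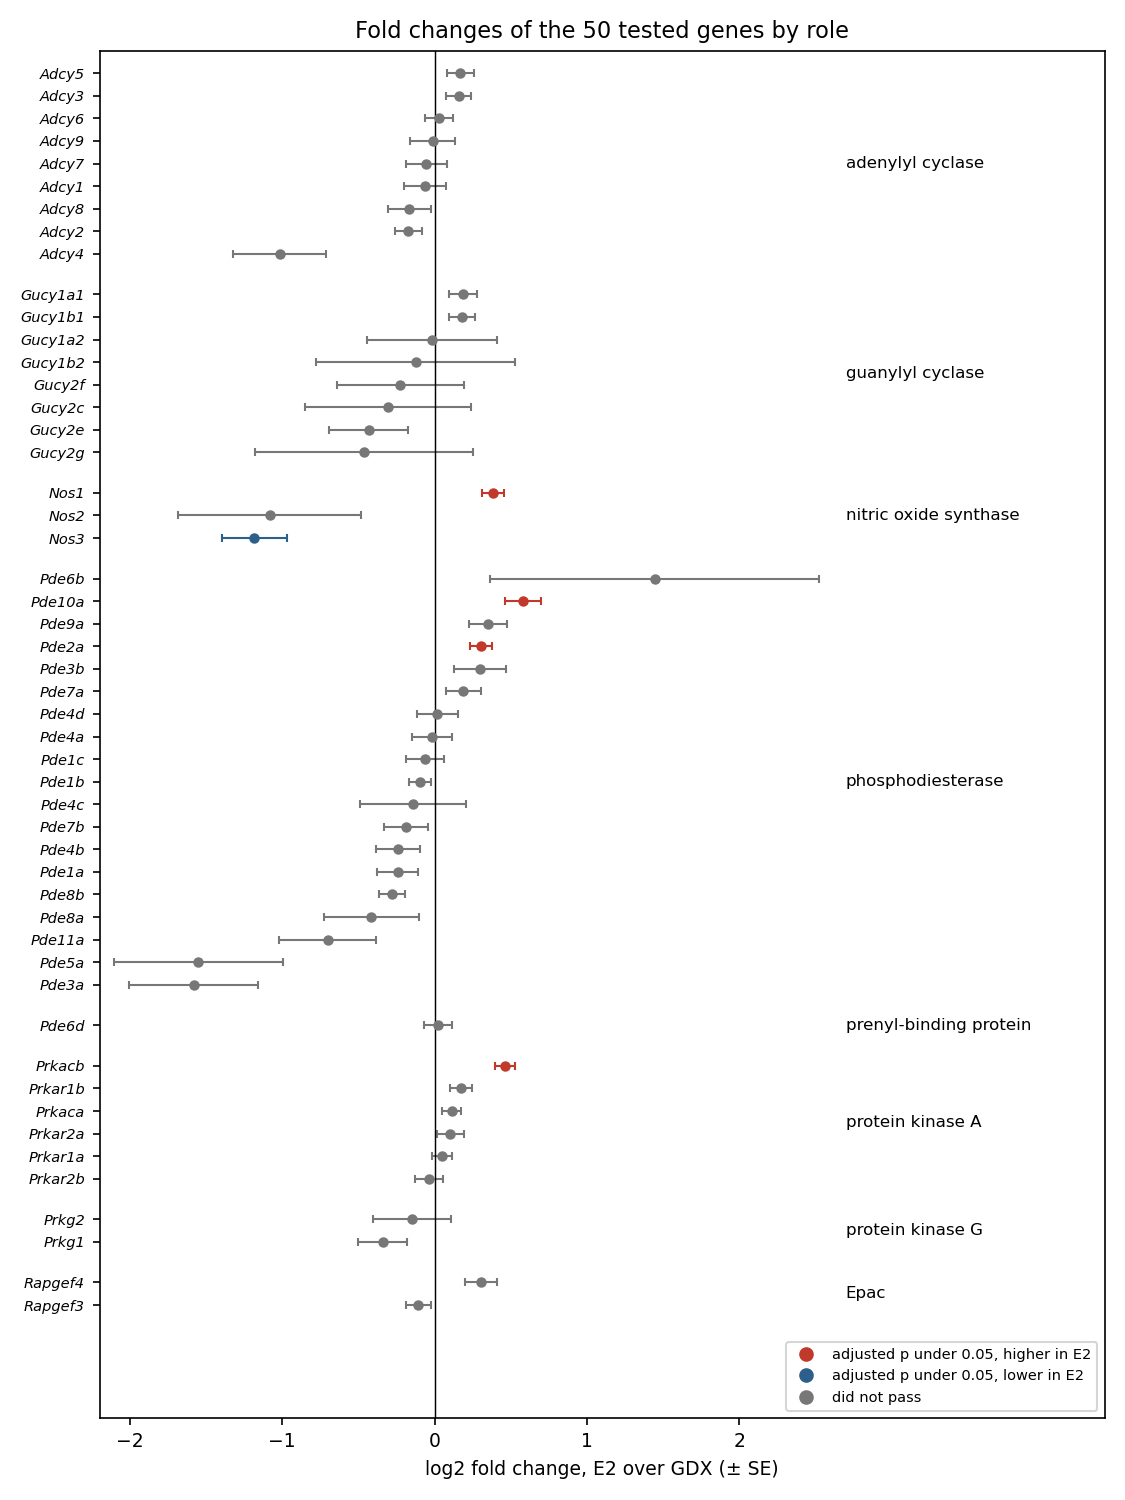
Log2 fold change, E2 over GDX, with its standard error for the 50 tested genes, grouped by role and ordered within a role by fold change. Red points (Nos1, Pde2a, Pde10a and Prkacb) and the blue point (Nos3) passed an adjusted p of 0.05 in the edgeR quasi-likelihood test, and the 45 grey points did not.

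Sequence around RefSeq starts of called genes is shown because cAMP-responsive factors and estrogen receptors bind defined short motifs. Windows from 250 bases before to 50 bases after each RefSeq gene start on GRCm38.p6 were available for 42 of the 54 genes, 82 windows in all, with 3 windows for Prkacb, 1 for Nos1, 5 for Pde2a and 2 for Pde10a. The motifs searched on both strands were the estrogen response element palindrome (GGTCA and TGACC with 3 bases of any kind between them), the full cAMP response element TGACGTCA, and its short form TGACG, which the full element contains. The stretches below are written 5′ to 3′ on the strand of the gene, with the match in capitals, and CGTCA is the short form TGACG on the other strand. The Prkacb stretch is chr3:146812991-146813101 (minus strand), the Nos1 stretch chr5:117866609-117866813 (plus strand), the Pde2a stretch chr7:101450518-101450546 (plus strand) and the Pde10a stretch chr17:8849994-8850022 (plus strand).
Prkacb: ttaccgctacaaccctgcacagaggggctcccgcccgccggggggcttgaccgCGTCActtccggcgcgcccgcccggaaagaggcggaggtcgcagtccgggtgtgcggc
Nos1: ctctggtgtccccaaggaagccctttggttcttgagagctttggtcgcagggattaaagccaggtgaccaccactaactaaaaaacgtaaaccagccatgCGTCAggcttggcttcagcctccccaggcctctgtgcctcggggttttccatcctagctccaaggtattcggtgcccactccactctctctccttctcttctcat
Pde2a: ccagggggcgcaggagCGTCAcggctgct
Pde10a: gggcggttGGTCAACCTGACCagagggag
The short form began 102 bases before the RefSeq start in Prkacb and 130 bases before it in Nos1. In Pde2a it began at base 15 past the start, inside an annotated exon. The RefSeq starts used for Prkacb (chr3:146812946), Nos1 (chr5:117866839), Pde2a (chr7:101450520) and Pde10a (chr17:8849985) lie inside the gene spans given below, downstream of their first bases. The short form is a short motif. It was common: 20 of the 82 windows (24.4%) and 20.8% of all 32851 windows held the short form. The full element was in 2 of the 82 windows, both of Prkar1a, and in 1.79% of all windows. The estrogen response element palindrome was in 1 of the 82 windows, a Pde10a window where it began at base 18 past the start inside an annotated exon, and in 23 of all 32851 windows (0.07%). These matches describe letters in a window, and no binding was measured.

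Nitric oxide synthases were the class in which both directions of change were found. Nos1 (ENSMUSG00000029361, chr5:117781032-117958840 on GRCm38, plus strand), the calcium- and calmodulin-dependent synthase of neurons, had 183, 167 and 182 CPM in the E2 libraries, against 140.4, 138, 126 and 139 CPM in the GDX libraries. The groups did not overlap, with a mean of 177 ± 9.11 CPM in E2 and 136 ± 6.82 CPM in GDX. Its log2 fold change was 0.38 ± 0.07 (SE), with an edgeR quasi-likelihood adjusted p of 0.0100. The antisense gene Gm26995, which overlaps 268 bp of its exons, was at 0 to 0.132 CPM in E2 and 0 to 0.247 CPM in GDX. The call was lost without E2 replicate 1 (log2 fold change 0.36, edgeR adjusted p = 0.0748) or 3 (0.36, adjusted p = 0.0654). It was also lost with the non-neuronal marker score as a covariate (log2 fold change 0.44 ± 0.12, edgeR adjusted p = 0.113). That score did not overlap between the groups, so this fit separates score and group poorly.

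Nos3 (ENSMUSG00000028978, chr5:24364810-24384474, plus strand), the synthase known from the endothelium of blood vessels, had 10.3, 11.3 and 13.9 CPM in E2 and 28.2, 27.6, 17.4 and 34.4 CPM in GDX. Every E2 library lay below every GDX library, and GDX replicate 3 was the lowest of its group. The mean was 11.8 ± 1.88 CPM in E2 and 26.9 ± 7.03 CPM in GDX, a log2 fold change of -1.18 ± 0.21 with an edgeR adjusted p of 0.0103. The call was lost without E2 replicate 1 (log2 fold change -1.09, edgeR adjusted p = 0.0715) or 2 (-1.15, adjusted p = 0.0679). It was also lost with the non-neuronal score as a covariate (log2 fold change -0.68 ± 0.23, edgeR adjusted p = 0.313). Exons of Nos3 overlap those of Atg9b by 294 bp and of Gm15587 by 1040 bp on the other strand, and these unstranded reads cannot be told apart there. Atg9b, an autophagy gene, was at 28.7 to 33.8 CPM in E2 and 21.3 to 29.1 CPM in GDX, with an estimate of 0.29 on the log2 scale that did not pass. Nos2, the inducible synthase of immune cells, stayed at 0.330 to 0.493 CPM in E2 and 0.369 to 1.48 CPM in GDX and did not pass. Per kilobase of exon, Nos1 made up 84.3% of the synthase total in E2 and 64.4% in GDX, while the total itself was 18.8 ± 1.01 CPM per kb in E2 and 18.9 ± 2.26 CPM per kb in GDX.

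Endothelial marker RNA moved with Nos3. All 6 markers (Cldn5, Flt1, Pecam1, Ly6c1, Slco1a4 and Tek) had negative estimates, from -1.18 to -0.81 on the log2 scale, and none was called by the edgeR quasi-likelihood test, although 4 had an unadjusted p under 0.05. Summed, they were at 101, 169 and 155 CPM in E2, against 312, 203, 177 and 446 CPM in GDX. Per 100 CPM of these markers, Nos3 was at 10.2, 6.68 and 8.99 CPM in E2 and at 9.04, 13.6, 9.85 and 7.72 CPM in GDX, so that the groups overlapped on this scale. The shift was not particular to this list: all 6 astrocyte, all 6 ependymal and all 6 oligodendrocyte markers also had negative estimates. Of 6 microglial markers, 4 had positive estimates. Mean summed levels in E2 were 0.498 of those in GDX for endothelial, 0.359 for astrocyte, 0.504 for ependymal and 0.765 for oligodendrocyte markers. GDX replicates 1 and 4 were also highest for astrocyte (2079 and 2681 CPM) and ependymal markers (118 and 142 CPM). The part of endothelial or other non-neuronal RNA in the fall of Nos3 was not tested. In these pulldown libraries, the number of cells of a type, RNA per cell and carry-over of untagged RNA cannot be told apart.

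Pde3a, Pde5a and Adcy4, low members with large negative estimates, ran along the same libraries. Pde3a, a phosphodiesterase inhibited by cGMP and known from vascular muscle and platelets, had 3.39, 2.44 and 3.77 CPM in E2, against 10.1, 6.74, 4.59 and 17.0 CPM in GDX. Its groups did not overlap, but the GDX values spread widely and it did not pass (log2 fold change -1.58 ± 0.42, edgeR adjusted p = 0.0821). Pde5a, the cGMP-specific enzyme inhibited by sildenafil, had 2.77, 1.29 and 1.82 CPM in E2, against 4.96, 4.39, 2.06 and 11.6 CPM in GDX. Its groups overlapped through GDX replicate 3 (log2 fold change -1.55 ± 0.55, edgeR adjusted p = 0.195). Adcy4 had 2.53, 3.72 and 4.66 CPM in E2, against 7.96, 7.75, 4.20 and 9.49 CPM in GDX, and GDX replicate 3 again lay among the E2 values. It did not pass either (log2 fold change -1.02 ± 0.31, edgeR adjusted p = 0.103). Per 100 CPM of endothelial markers the groups overlapped for each of these genes, with Pde3a at 1.44 to 3.37 CPM in E2 and 2.59 to 3.80 CPM in GDX. On that scale Adcy4 was at 2.20 to 3.0 CPM in E2 and 2.13 to 3.82 CPM in GDX, and Pde5a at 0.760 to 2.75 CPM in E2 and 1.16 to 2.61 CPM in GDX. The part of endothelial or other non-neuronal RNA in these estimates was not tested. Without GDX replicate 3 all of these genes passed as lower in E2 beside Nos3, so the count of members lower in E2 was 4 in place of 1, and without GDX replicate 4 it was 2.

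**Figure D3:**
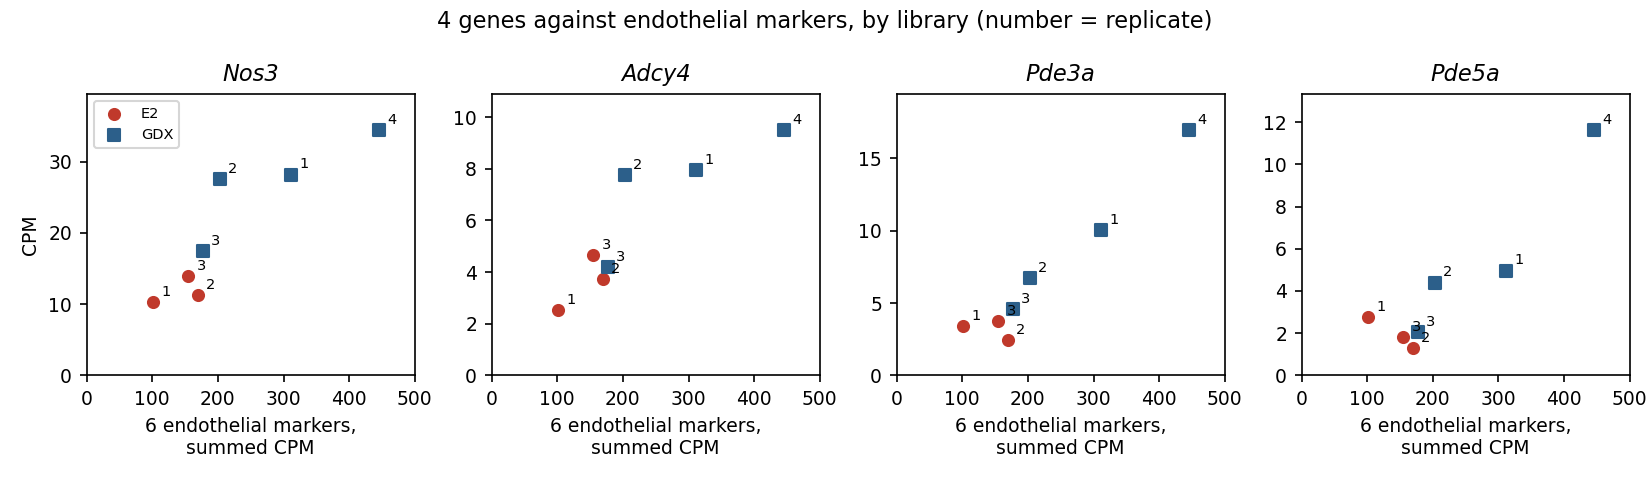
Level in CPM of Nos3, Adcy4, Pde3a and Pde5a (vertical axes, linear) against the summed CPM of 6 endothelial markers (horizontal axes) in each E2 and GDX library, with replicate numbers. GDX replicates 1 and 4, at 312 and 446 CPM of markers, lie at the upper right, and GDX replicate 3 at 177 CPM lies near the E2 libraries. Summed astrocyte and ependymal markers, not plotted here, were also highest in GDX replicates 1 and 4.

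Among the cAMP-forming enzymes, none of 9 tested adenylyl cyclases passed the edgeR quasi-likelihood test, where 1, Adcy4, had an unadjusted p under 0.05. Of all tested genes 3.88% were called and 16.8% had an unadjusted p under 0.05. A class of 9 genes is too short to show fewer calls than that. Per kilobase of exon the leading cyclase was Adcy5, a form inhibited by calcium, at 27.2 ± 2.96 CPM per kb in E2 and 24.2 ± 1.66 CPM per kb in GDX. Its levels were 173, 199 and 215 CPM in E2, against 186, 181, 169.8 and 159 CPM in GDX. The groups overlapped, with means of 196 ± 21.3 CPM in E2 and 174 ± 12 CPM in GDX and a log2 fold change of 0.17 ± 0.09 (edgeR adjusted p = 0.368). Adcy2 followed at 20.3 ± 1.52 CPM per kb in E2 and 22.8 ± 1.81 in GDX, and Adcy3 at 19.1 ± 1.61 CPM per kb in E2 and 17.1 ± 0.778 in GDX. Adcy2 and Adcy3 did not differ beyond their spread in E2, nor did Adcy5 and Adcy2 in GDX. Exons of Adcy3 share 1380 bp with Cenpo on the other strand, which was at 6.07 to 7.22 CPM in E2 and 5.64 to 8.02 CPM in GDX. The calcium-stimulated cyclases Adcy1 and Adcy8 averaged 30.2 and 28.7 CPM in E2 and 31.6 and 32.2 CPM in GDX. The summed level of the cyclases was 89.2 ± 5.77 CPM per kb in E2 and 88.0 ± 4.07 CPM per kb in GDX, a ratio of 1.01.

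None of 8 tested guanylyl cyclase genes passed with edgeR, and none had an unadjusted p under 0.05. The shares over all tested genes were 3.88% and 16.8%, and a class of 8 genes is too short to show fewer calls. The nitric oxide receptor is a dimer of an alpha and a beta subunit, and its subunits Gucy1b1 and Gucy1a1 led the class at 32.2 and 6.82 CPM per kb in E2 and 28.4 and 5.99 CPM per kb in GDX. Gucy1b1 had 137, 127 and 116 CPM in E2, against 102, 113, 112 and 119.8 CPM in GDX. The groups overlapped through E2 replicate 3 and GDX replicate 4, and the means were 127 ± 10.9 CPM in E2 and 112 ± 7.5 CPM in GDX. Its log2 fold change was 0.18 ± 0.08 with an edgeR adjusted p of 0.307. Gucy1a1 had a similar estimate of 0.19 ± 0.09 (edgeR adjusted p = 0.357). The other soluble subunits Gucy1a2 and Gucy1b2 averaged 1.63 and 0.522 CPM in E2 and 1.65 and 0.571 CPM in GDX. Receptor cyclases of the Gucy2 group were low, with Gucy2e, a photoreceptor form in mouse, the highest at 4.08 CPM in E2 and 5.50 CPM in GDX. Estimates of the 4 tested Gucy2 genes ranged from -0.46 to -0.22.

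Among the phosphodiesterases, 2 of 19 tested genes passed as higher in E2 with edgeR and none as lower, and 12 of the 19 estimates were negative. Of all tested genes 2.55% were called higher and 1.33% lower, and 9003 of 18282 had negative estimates. DESeq2 called Pde3a, Pde5a and Pde8b lower, and limma-voom called Pde8b lower. Pde2a (ENSMUSG00000110195, chr7:101421691-101512827, plus strand), whose hydrolysis of cAMP is stimulated by cGMP, had 271, 261 and 278 CPM in E2, against 222, 236, 207 and 210.1 CPM in GDX. The groups did not overlap, with 269.9 ± 8.64 CPM in E2 and 219 ± 13.2 CPM in GDX. The log2 fold change was 0.30 ± 0.07 with an edgeR quasi-likelihood adjusted p of 0.0315, the weakest of the 5 calls. The call was lost without E2 replicate 1, 2 or 3, at log2 fold changes of 0.30, 0.33 and 0.28 (edgeR adjusted p = 0.155, 0.0860 and 0.140). It was also lost without GDX replicate 1 (adjusted p = 0.0818) and with library sizes only (log2 fold change 0.24, adjusted p = 0.0857). With the non-neuronal score as a covariate it was lost too (log2 fold change 0.29 ± 0.11, adjusted p = 0.412). The annotated gene Gm45837 shares 3955 bp of exon with Pde2a on the same strand and took 0, 8.41 and 0 CPM in E2 and 6.03, 0, 18.9 and 10.3 CPM in GDX. Summed over both genes the level was 271, 269 and 278 CPM in E2 and 228, 236, 226 and 220.4 CPM in GDX. The call held on the sum (log2 fold change 0.26 ± 0.06, edgeR adjusted p = 0.0362), in a fit added after the data were seen.

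Pde10a (ENSMUSG00000023868, chr17:8525372-8986648, plus strand), best known from striatal medium spiny neurons, had 74.6, 56.5 and 63.1 CPM in E2, against 45.5, 44.4, 36.1 and 46.9 CPM in GDX. The groups did not overlap, and E2 replicate 1 was the highest library. Means were 64.7 ± 9.16 CPM in E2 and 43.2 ± 4.88 CPM in GDX, which is 0.58 ± 0.12 on the log2 scale (edgeR adjusted p = 0.0159). The call was lost without E2 replicate 1 (log2 fold change 0.47, edgeR adjusted p = 0.111) or 3 (0.60, adjusted p = 0.0664). It was also lost with the non-neuronal score as a covariate (log2 fold change 0.65 ± 0.19, edgeR adjusted p = 0.183).

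Of the other enzymes that hydrolyse both nucleotides, the calcium- and calmodulin-dependent Pde1b stood second to Pde2a per length, at 23.3 ± 1.36 CPM per kb in E2 and 24.9 ± 1.13 CPM per kb in GDX. Pde2a itself was at 43.9 ± 1.40 CPM per kb in E2 and 35.6 ± 2.14 CPM per kb in GDX. Pde11a had 3.82, 2.44 and 3.73 CPM in E2, against 6.74, 6.10, 2.86 and 6.00 CPM in GDX. Its groups overlapped through GDX replicate 3 and it did not pass (log2 fold change -0.70 ± 0.32, edgeR adjusted p = 0.290). None of the 8 cAMP-specific enzymes (Pde4, Pde7 and Pde8 genes) passed with edgeR, beside 3.88% of all tested genes. Among so few genes, fewer calls than that cannot be shown. An unadjusted p under 0.05 was found for 1 of them, beside 16.8% of all tested genes. That gene was Pde8b, a high-affinity enzyme, with 45.9, 53.2 and 46.7 CPM in E2, against 59.7, 60.2, 57.5 and 58.2 CPM in GDX. Every E2 library lay below every GDX library (log2 fold change -0.28 ± 0.08, edgeR adjusted p = 0.108), and the gene was also called lower with library sizes only. The rolipram-sensitive Pde4a, Pde4b and Pde4d averaged 27.3 to 54.7 CPM in E2 and 27.0 to 64.6 CPM in GDX. Among the cGMP-specific enzymes, Pde9a had 23.0, 19.7 and 23.4 CPM in E2, against 18.5, 17.3, 18.4 and 14.7 CPM in GDX. Its E2 libraries lay above its GDX libraries without passing (log2 fold change 0.35 ± 0.13, edgeR adjusted p = 0.172). The photoreceptor subunit Pde6b had the largest positive estimate, 1.44 ± 1.08, from 0.0616 to 0.560 CPM in E2 and 0 to 0.369 CPM in GDX, values close to the floor of 3 counts at 0.0818 to 0.101 CPM. The summed level of the phosphodiesterases was 118 ± 1.33 CPM per kb in E2 and 114 ± 7.20 CPM per kb in GDX.

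**Figure D4:**
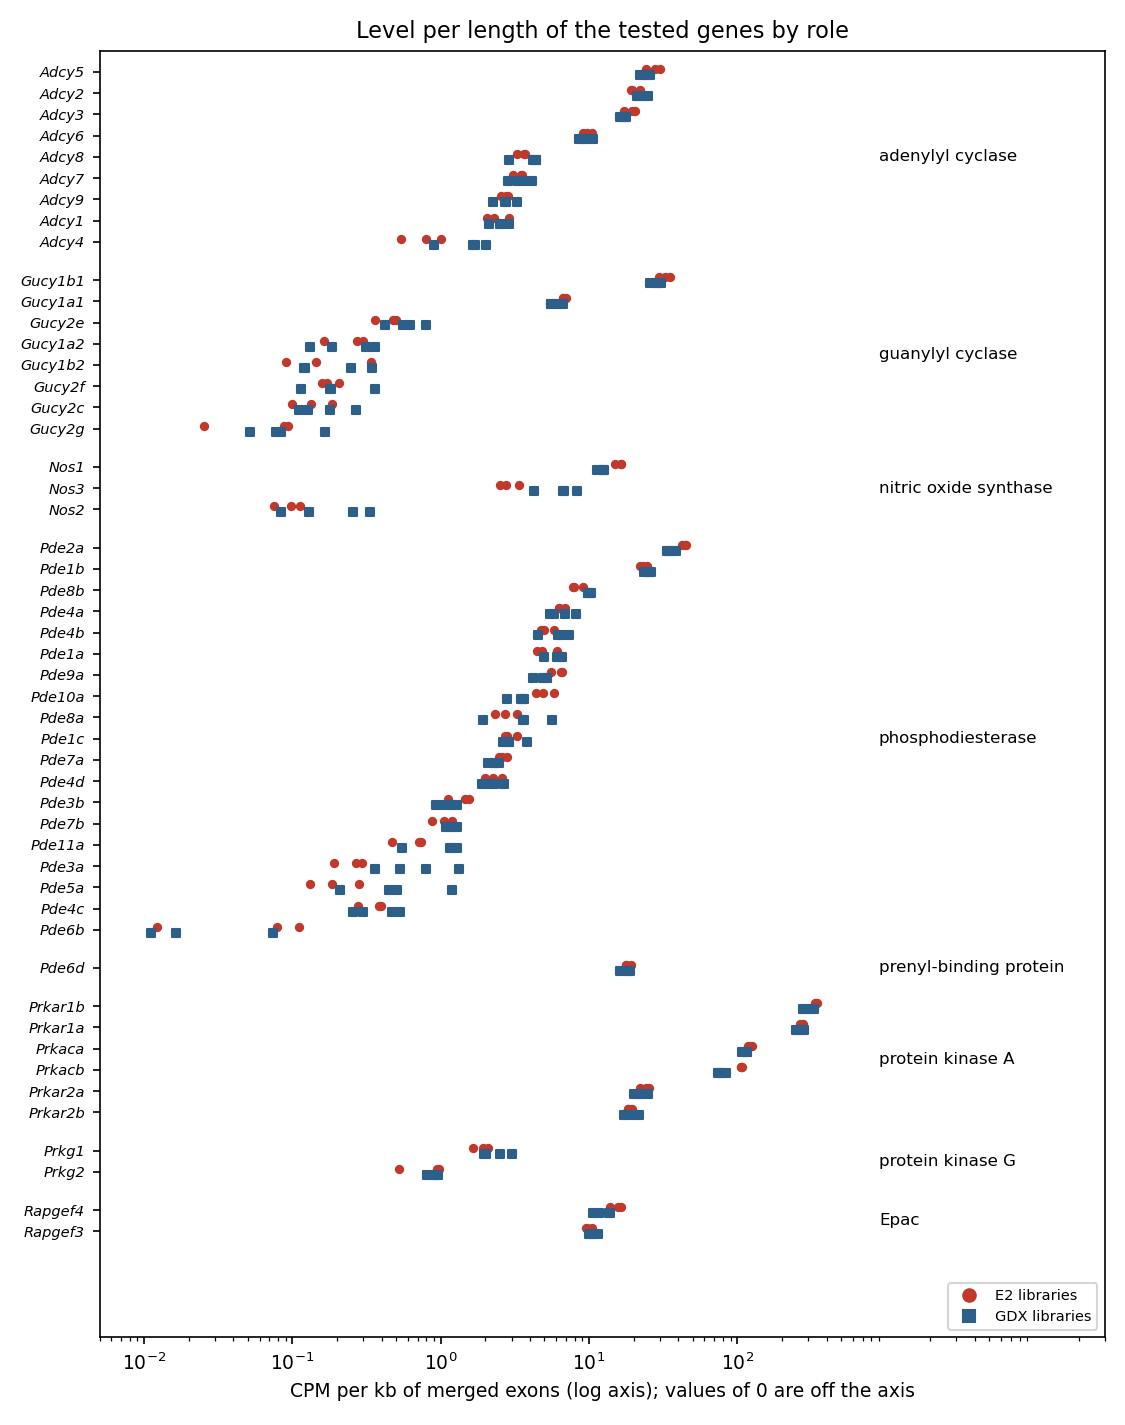
Level in CPM per kilobase of merged exons (log axis; values of 0 are off the axis) of the tested genes in each E2 (circles) and GDX (squares) library, grouped by role and ordered by level. Prkar1b and Prkar1a stand highest at 339 and 272 CPM per kb in E2, and the leading phosphodiesterase is Pde2a and the leading adenylyl cyclase Adcy5.

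Of 6 protein kinase A subunits, 1 passed the edgeR quasi-likelihood test, beside 3.88% of all tested genes. The type I regulatory and the catalytic subunits had the highest levels per length of all members. Prkacb (ENSMUSG00000005034, chr3:146729574-146812990, minus strand), which encodes the beta catalytic subunit, had 949.7, 931 and 926 CPM in E2, against 657, 682, 648 and 732 CPM in GDX. The groups stood far apart beside their spread, with means of 935 ± 12.7 CPM in E2 and 679.6 ± 37.6 CPM in GDX. The log2 fold change was 0.46 ± 0.06 with an edgeR quasi-likelihood adjusted p of 0.00132. It was called under all 16 alternative settings, with log2 fold changes of 0.40 to 0.50 and adjusted p-values up to 0.0345, among them the fit with the non-neuronal score. The alpha catalytic subunit Prkaca had 301, 294 and 311 CPM in E2, against 271, 268, 291 and 289 CPM in GDX. Its groups did not overlap either, but the change was small and missed the threshold (0.11 ± 0.06 on the log2 scale, edgeR adjusted p = 0.430). Per kilobase of merged exons, Prkacb made up 47.2%, 47.3% and 45.7% of the catalytic level in E2, against 40.7%, 41.9%, 38.7% and 41.8% in GDX. The size of this share rests on the length used: per kilobase of the longest transcript, Prkacb stood above Prkaca, at 182 against 127 CPM per kb over all libraries. Over merged exons, the summed catalytic level was 228 ± 3.28 CPM per kb in E2 and 189.9 ± 6.96 CPM per kb in GDX, a ratio of 1.2.

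The regulatory subunits hold the kinase inactive until cAMP binds. Prkar1b, a type I subunit of neurons, led all members per length, and had 1264, 1314 and 1296 CPM in E2, against 1051, 1201, 1248 and 1086 CPM in GDX. The groups did not overlap, with 1291 ± 25.4 CPM in E2 and 1146 ± 93.2 CPM in GDX, but the gene did not pass (log2 fold change 0.17 ± 0.07, edgeR adjusted p = 0.255). Its exons share 341 bp with Gm15672 on the same strand, at 0.132 to 0.678 CPM in E2 and 0.531 to 1.07 CPM in GDX. Prkar1a averaged 1175 ± 25.3 CPM in E2 and 1136 ± 63.4 CPM in GDX. The type II subunits Prkar2a and Prkar2b were at 24.0 ± 1.72 and 18.7 ± 0.658 CPM per kb in E2 and at 22.3 ± 2.07 and 19.1 ± 2.05 CPM per kb in GDX. The summed regulatory level was 654 ± 5.04 CPM per kb in E2 and 605 ± 34.3 CPM per kb in GDX, a ratio of 1.08.

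Protein kinase G was low. Prkg1, the form of smooth muscle and some neurons, had 22.4, 17.8 and 20.8 CPM in E2, against 21.2, 22.0, 27.1 and 32.8 CPM in GDX. The groups overlapped, with means of 20.4 ± 2.34 CPM in E2 and 25.8 ± 5.36 CPM in GDX, and the gene did not pass (log2 fold change -0.34 ± 0.16, edgeR adjusted p = 0.312). Prkg2 averaged 4.37 CPM in E2 and 4.84 CPM in GDX. Of the Epac pair, Rapgef4 (Epac2), the neuronal form, had 109.8, 92.6 and 105 CPM in E2, against 92.3, 91.1, 70.9 and 78.0 CPM in GDX. The groups were narrowly apart, with E2 replicate 2 just above GDX replicate 1, and the difference of 0.30 ± 0.11 on the log2 scale did not pass (edgeR adjusted p = 0.161). Rapgef3 (Epac1) averaged 62.5 ± 3.30 CPM in E2 and 67.2 ± 3.93 CPM in GDX.

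The 99 further genes in lists of the same pathways, from receptors to channels and kinase partners, gave 8 calls among 89 tested genes, 6 higher and 2 lower, and 6 of the called genes are described here. The called share was 8.99%, beside 3.88% of all tested genes. The balance of directions changed to 6 higher and 6 lower with DESeq2 and to 5 higher and 4 lower with library sizes only. Npr2, a receptor guanylyl cyclase for C-type natriuretic peptide, had 177, 158 and 165 CPM in E2, against 87.3, 103, 91.4 and 85.3 CPM in GDX. This was a log2 fold change of 0.86 ± 0.08 (edgeR adjusted p = 8.4e-05), it was called under all 16 alternatives, and it made Npr2 the one cGMP-forming enzyme in these lists or families that passed. The other natriuretic receptor with cyclase activity, Npr1, averaged 3.68 ± 1.03 CPM in E2 and 5.55 ± 0.926 CPM in GDX and did not pass. Hcn4, a pacemaker channel gated by voltage and cAMP, averaged 36.6 ± 2.28 CPM in E2 and 22.0 ± 3.06 CPM in GDX (log2 fold change 0.73 ± 0.12, edgeR adjusted p = 0.00453).

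Pts, an enzyme in the synthesis of the nitric oxide synthase cofactor tetrahydrobiopterin, averaged 36.6 ± 2.50 CPM in E2 and 21.2 ± 1.58 CPM in GDX (0.79 ± 0.10 on the log2 scale, edgeR adjusted p = 0.000810). It was the 1 call among 10 tested nitric oxide synthase partners, where Nos1ap and Nosip, proteins that bind the synthases, did not pass. Sik1, a kinase induced by cAMP that acts on CREB coactivators, averaged 41.0 ± 2.41 CPM in E2 and 31.1 ± 1.95 CPM in GDX (0.40 ± 0.09, edgeR adjusted p = 0.0361) and was called in 7 of 16 alternatives.

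The calls in the lower direction were Sphkap and Rap2b. Sphkap, an anchoring protein that binds type I regulatory subunits of protein kinase A, had 97.1, 91.5 and 87.8 CPM in E2, against 129, 126, 115 and 137 CPM in GDX. It was the 1 call among 16 tested anchoring proteins (log2 fold change -0.46 ± 0.08, edgeR adjusted p = 0.00699). Rap2b, a small GTPase of the Rap family, averaged 24.3 ± 1.07 CPM in E2 and 33.7 ± 3.38 CPM in GDX (-0.47 ± 0.11, edgeR adjusted p = 0.0299) and was called in 10 of 16 alternatives. Rap1a and Rap1b, further members of the Rap family, did not pass, at -0.03 and -0.18 on the log2 scale. With the non-neuronal score as a covariate the calls of Pts (log2 fold change 0.67 ± 0.16, adjusted p = 0.0703), Sphkap (-0.39 ± 0.13, adjusted p = 0.260) and Sik1 (0.49 ± 0.15, adjusted p = 0.215) were lost, while their estimates kept their direction. In that fit 5 genes of the lists were called in all. Exons of Rap2b share 3702 bp with B430305J03Rik on the other strand, which was at 0 to 2.08 CPM in E2 and 1.36 to 6.06 CPM in GDX. Exons of Npr2 share 266 bp with the antisense gene Gm12473, which was at 4.91 to 6.23 CPM in E2 and 2.01 to 4.03 CPM in GDX.

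**Figure D5:**
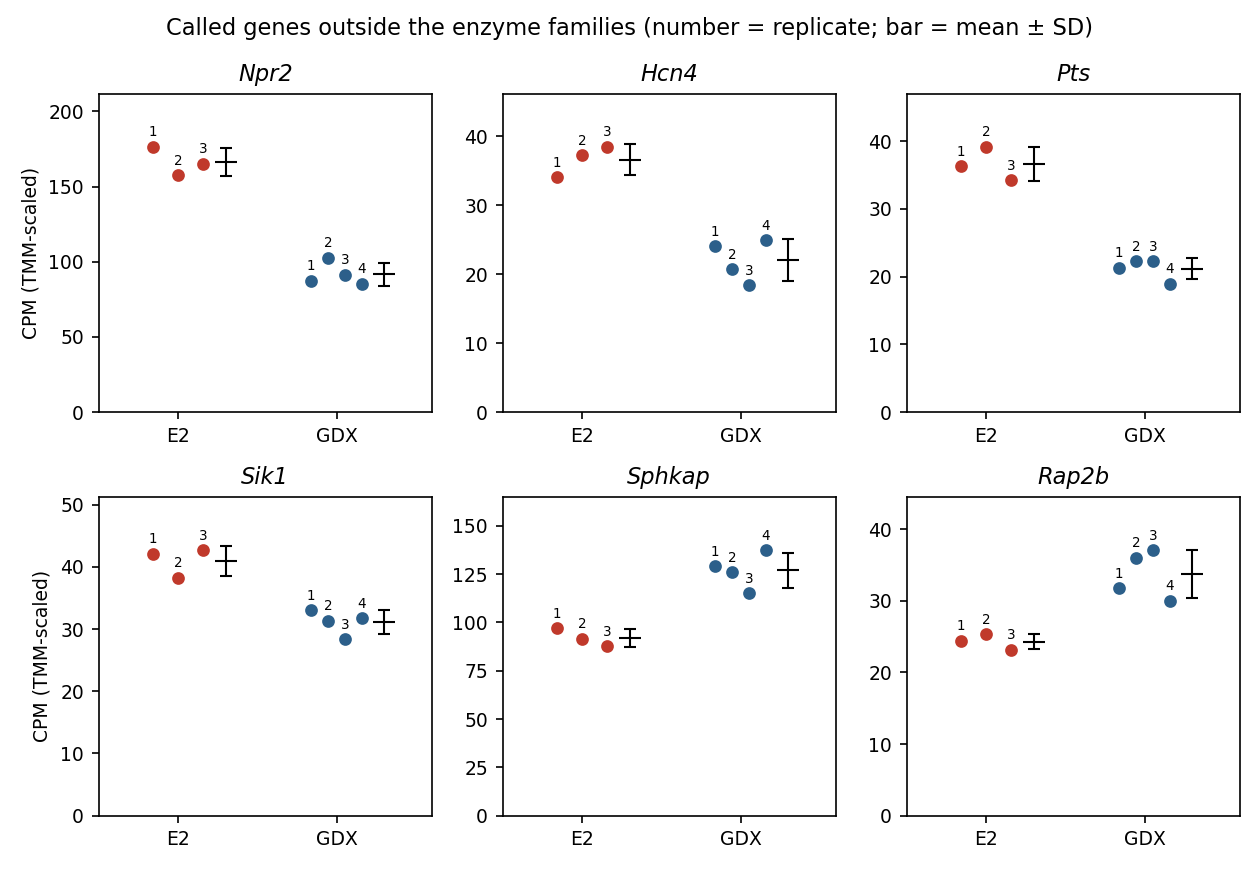
Normalised level in CPM (linear axes starting at 0) of called genes outside the enzyme families in each E2 (n = 3) and GDX (n = 4) library, with replicate numbers and the mean ± SD beside the points. The groups do not overlap in any panel: E2 lies above GDX for Npr2, Hcn4, Pts and Sik1 and below it for Sphkap and Rap2b.

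The genes in this paragraph were not called with the edgeR quasi-likelihood test, though some of their lists held other calls. Of all tested genes 3.88% were called and 16.8% had an unadjusted p under 0.05. A list of 9 genes is too short to show fewer calls than that. None of 9 G protein alpha subunits that act on adenylyl cyclase passed, and none had an unadjusted p under 0.05. Gnas, the stimulatory subunit, averaged 3072 ± 114 CPM in E2 and 3216 ± 294 CPM in GDX, and the related Gnal averaged 196 ± 8.43 CPM in E2 and 183 ± 12.6 CPM in GDX. None of 9 kinase inhibitors and phosphatase-linked substrates passed or had an unadjusted p under 0.05, with the kinase inhibitor genes Pkia and Pkib at -0.06 and -0.07 on the log2 scale. The transcription factors Creb1 and Crem, which the kinase phosphorylates, did not pass. Creb1 averaged 30.8 ± 1.33 CPM in E2 and 39.2 ± 3.56 CPM in GDX (log2 fold change -0.35 ± 0.10, edgeR adjusted p = 0.0877). Of the anchoring proteins Akap1 and Akap2 did not pass (0.11 and -0.11), nor did the natriuretic peptides Nppa and Nppc (-0.68 and 0.41) or the sensory channel subunits Cnga2 and Cnga3 (-0.34 and -0.98).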

How the data were processed

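For each gene and library the authors deposited an expected count. Any decimal part counted, 33.1% of the values above 0 were fractional. Per the submitters' processing notes, Trimmomatic 0.38, STAR 2.6.0a, RSEM 1.3.0 and the build mm10 were used; their roles and order, and the annotation, were not given in the sources used here. Libraries were unstranded and made from polyadenylated RNA, per the labels' protocols, so reads of overlapping genes on opposite strands cannot be told apart. Symbols and coordinates came from GENCODE vM21 on GRCm38 (55203 of 55384 genes matched), and promoter windows from RefSeq on GRCm38.p6.

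Expected counts were rounded and fitted in R 4.3.3 with edgeR 4.0.16: TMM factors, filterByExpr (minimum count 10, minimum total 15), robust quasi-likelihood test of E2 (n = 3) against GDX (n = 4), and Benjamini-Hochberg adjustment over all 18282 tested genes at 0.05. Fold changes use a prior count of 0.125. Levels are CPM with the SD between libraries, and levels of different genes were compared per kilobase of merged exons. Alternatives used limma 3.58.1 (voom) and DESeq2 1.42.0, and the fit was tested on simulated data. Pools of 4 brains were the replicates, so p-values measure the spread between pools. The floor of 3 counts covers counting error only. Replicate numbers did not pair the libraries: same-numbered libraries had correlations of -0.02, -0.04 and -0.06 of their deviations from group means.

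The members and gene lists were chosen with earlier results of these data known. Any member could be named; given in full were members with an adjusted or unadjusted p under 0.05 and the highest member per length of each class, and from each pathway list up to 4 called genes and the first 2 that did not pass. Some called genes of these lists are not reported here.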

Additional observations from a re-analysis of the deposited data

Results flagged for a closer look

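In the GDX group 1 library stood apart from the rest in 2 of 58 tests of single libraries, where chance gives about 1 in 20. For Adcy8, a calcium-stimulated adenylyl cyclase, GDX replicate 3 had 23.6 CPM while the rest of the group lay at 33.9 to 35.7 CPM, a gap of 0.849 of the group's range. For Nos1, its 126 CPM lay under the 138 to 140.4 CPM of the rest, a gap of 0.831 of the range. Nos1 remained called without GDX replicate 3.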

How the results depend on the processing

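All 50 tested members rest on 7 pools, and Prkacb was the 1 member called under every alternative. Beside 710 genes, the counts were 1609 without the low-count filter, 1400 with DESeq2, 1109 with limma-voom and 254 with the non-neuronal score as a covariate, and 364 to 974 when 1 library was left out. Beside 5 members called, the counts were 9 without the filter, 9 with DESeq2, 1 with the covariate and 1 to 8 with 1 library left out. Members higher in E2 were 4, against 1 with the covariate and 1 to 4 with 1 library left out. Members lower in E2 were 1, against 2 with library sizes only, 4 without the filter, 5 with DESeq2, 3 with limma-voom, 0 with the covariate, and 0 to 4 with 1 library left out. The other pathway genes called were 8 (2 lower), against 12 without the filter (5 lower), 12 with DESeq2 (6 lower), 11 with limma-voom (4 lower), 5 with the covariate and 6 to 8 with 1 library left out. With the replicate number as a block, 612 genes and 4 members were called; Pde2a (adjusted p = 0.119) and Sik1 (adjusted p = 0.0841) were not. Without GDX replicates 1 and 4 together, 769 genes and 4 members were called. The non-neuronal score did not overlap between the groups, so the covariate fit separates score and group poorly. The cause of these differences was not tested.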
